A study of Cucumis sativus with 12 samples.

Results

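The genes of abscisic acid synthesis and signalling were described in cucumber leaves across 4 times of cold treatment. They were chosen by their deposited descriptions alone: a gene was a member when its description, case ignored, held abscisic, 9-cis-epoxycarotenoid, protein phosphatase 2C, SNF1-related, SnRK2, SAPK or SRK2. This gave 121 of 24317 genes, of which 4 act in synthesis, 8 in breakdown, 11 are receptors, 65 are protein phosphatases 2C (PP2C), 25 are kinases or their subunits and 8 are transcription factors of the ABSCISIC ACID-INSENSITIVE 5 (ABI5) type. The rule reads descriptions and no measured value.

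Abscisic acid is the plant hormone best known for closing stomata and for switching on protective genes when water is short or the temperature drops. Its level is set by cleavage of carotenoids by 9-cis-epoxycarotenoid dioxygenases (NCED), the committed step of its synthesis, and by 8'-hydroxylases of the CYP707A family, which start its breakdown. In the core pathway, receptors of the PYR/PYL family that have bound the hormone hold back a group of PP2Cs, which frees SnRK2 kinases to phosphorylate ABI5-type transcription factors and ion channels. SnRK1, the plant counterpart of the yeast energy sensor SNF1, is a related kinase complex and was kept apart here from SnRK2, and most PP2Cs of a plant act outside the hormone pathway.

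RNA-seq was performed on leaves of the inbred line JinYan No. 4, with 3 libraries at each of 0, 3, 12 and 24 h of cold and 12 libraries in all, from biological replicates. Seedlings with 3 true leaves were moved to days at 15 °C and nights at 6 °C, of 12 h each, from a regime that was warmer by day and by night and had longer days. The question each comparison addressed was which of these genes had another transcript level after that time in the cold. Untreated 0 h leaves of the same line served as the sole control. Later leaves thus differed from them also in age and light period and, at 3 and 12 h, in the time of day, which cannot be told apart from the cold. The 0 and 24 h samples share the clock hour.

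Values are FPKM, fragments per length of transcript and per number of mapped fragments, which may be compared between genes since they are scaled to length. Summed FPKM lay between 561513 and 586297 per library, replicates correlated at 0.983 to 0.990 on the log2 scale against 0.824 to 0.946 between times, and relative depth read from the lowest values ran from 0.912 to 1.28 times that of the first 0 h library. The absolute depth was not given in the sources used here, so that no counting interval could be attached. Among markers of leaf cell types, 26 mesophyll genes (photosystem, light-harvesting and Rubisco small subunit genes, all above 0 in every library) summed to between 32961 and 37908 FPKM at 0 h, and to between 73348 and 89134 FPKM at 12 h. Their sums ran from 33250 to 37671 in the 3 h libraries and from 42072 to 59275 by 24 h. A list of 17 guard cell and stomatal lineage genes, of which 9 were above 0 in every library and 1 was at 0 in all, summed to between 72.3 and 76.9 FPKM at 0 h and 84.8 and 92.8 in the 3 h libraries. The 12 h libraries gave 64.8 and 83.9 and the 24 h libraries 46.6 and 53.6 FPKM. Of 14 epidermis genes, 10 were above 0 in every library and 1 was at 0 in all, and their sum, 104 to 109 FPKM before the cold, stood at 279 to 297 after 3 h, 81.2 to 95.4 after 12 h and 88.4 to 99.8 after 24 h. The 6 xylem genes, all above 0 throughout, summed to 13.6 to 14.2 FPKM before the cold, then 9.3 to 10.4, 5.77 to 7.03 and 8.51 to 12.7. Of 12 phloem genes 7 were above 0 in every library, and they summed to 490 to 818, 340 to 479, 395 to 438 and 387 to 540 FPKM in the same order. In whole leaves, fewer cells of a type cannot be told apart from less RNA per cell, and the part of these shifts in the results was not tested.

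A gene was tested when it had at least 0.5 FPKM in at least 3 libraries, which 111 of the 121 members and 17497 of all genes did. It was called higher or lower when limma on log2(FPKM + 0.5) gave a p under 0.05, adjusted by Benjamini-Hochberg over every tested gene, and the log2 fold change was beyond 1 in either direction. Fold changes on this scale understate the change of low genes. At 3 h, 16 members rose (14.4% of those tested, against 9.89% of all tested genes) and 9 fell (8.11% against 5.39%). At 12 h, 10 rose (9.01% against 9.62%) and 30 fell (27.0% against 16.6%). At 24 h, 16 rose (14.4% against 13.2%) and 28 fell (25.2% against 18.1%). Calls among members therefore moved from mostly higher at 3 h to mostly lower at 12 and 24 h, as they did among all genes. The median log2 fold change of the members was -0.05, -0.40 and -0.42 at the 3 times, against 0.03, -0.23 and -0.17 over all tested genes.

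From 3 to 12 h, 11 members rose (background 6%) and 29 fell (15.3%), and from 12 to 24 h, 13 rose (8.46%) and 3 fell (5.2%). The last count was 7 when 12 h replicate 1 or 24 h replicate 2 was left out, and 5 when 12 h replicate 2 or 24 h replicate 3 was. The balance at 12 and 24 h depended on the scaling between libraries: after median-ratio rescaling, which moved the median of all genes to -0.01 at 12 h and 0.01 at 24 h, 13 members were higher and 18 lower at 12 h (13.2% and 11.3% of all genes) and 20 were higher and 18 lower at 24 h (16.0% and 13.9%). Quantile normalization gave 13 higher and 21 lower at 12 h, and 17 higher and 25 lower at 24 h, against 12.3% and 12.1%, then 14.6% and 15.4%, of all genes. From 3 to 12 h the split was 13 to 20 after median-ratio rescaling (9.27% and 10% of all genes) and 14 to 19 after quantile normalization (9.48% and 9.45%). From 12 to 24 h it was 12 to 7 (8.12% and 6.05%) and 11 to 8 (7.65% and 6.31%). At 3 h, quantile normalization gave 14 to 13 (8.4% and 7.12%). Of the tested members, 51 were called at none of the 3 times against 0 h, a count not made over all genes. At each time alone, 86, 71 and 67 of the 111 members were not called, against 14823, 12901 and 12023 of the 17497 tested genes. The limma adjusted p was under 0.05 for 30, 38 and 32 of these 51 members at 3, 12 and 24 h, so they missed only the fold threshold there.

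**Figure D1:**
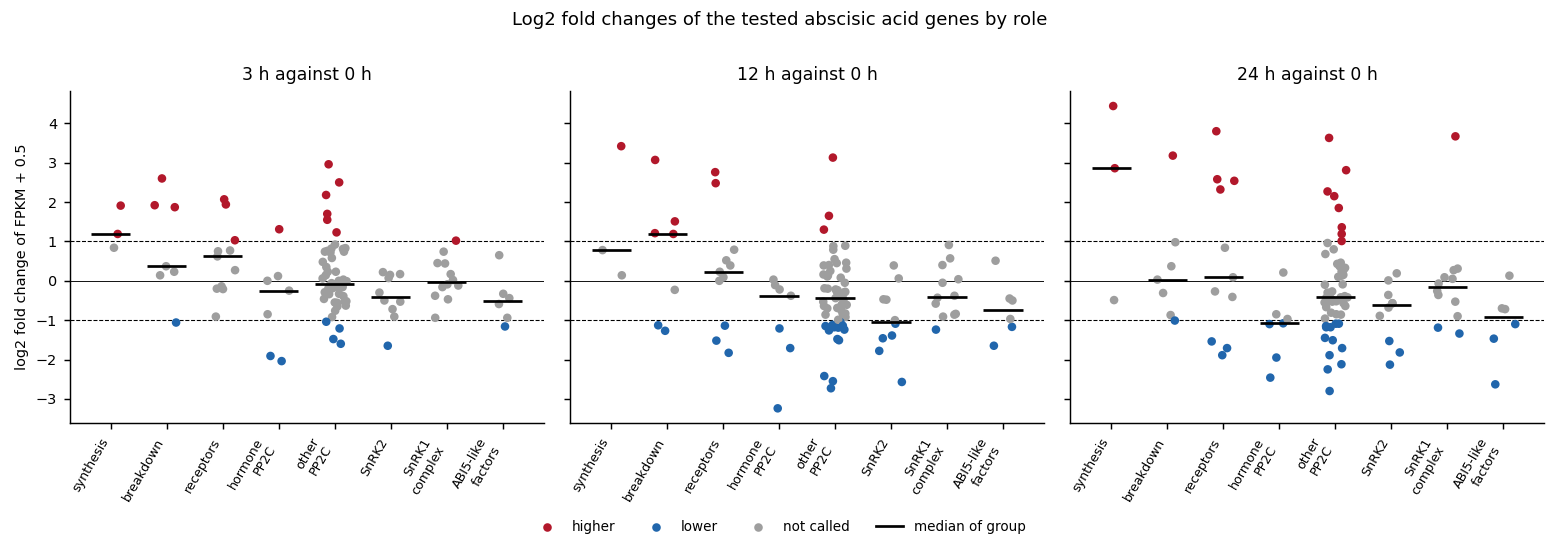
Log2 fold change of FPKM + 0.5 of each tested member (points, coloured by call) at 3, 12 and 24 h against 0 h, by role, with the median of each group as a bar and the fold threshold as dashed lines. Synthesis genes sit at or above 0.14 at 3 and 12 h, no gene of the hormone PP2C group was called higher at 12 or 24 h, and the calls of the other PP2Cs spread from -2.80 to 3.63 at 24 h.

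Synthesis genes were called in the upward direction against 0 h: 2 of 3 tested NCED genes rose at 3 h, 1 did so by 12 h and 2 by 24 h. The shares were 66.7%, 33.3% and 66.7%, against 9.89%, 9.62% and 13.2% of all genes. NCED5, near 0 FPKM at 0 h, passed the filter through its 12 and 24 h libraries and could hardly be called lower. The untested NCED6 is not in these shares, so they lean towards genes that are high in the cold. None of the 3 tested NCED genes was called lower, also under both other scalings. At an adjusted p under 0.05 with no fold threshold, limma gave 1 as lower, at 24 h. The summed FPKM of all 4 NCED genes was 3.17 ± 0.828 (SD, n = 3) before the cold and 11.6 ± 0.935 at 3 h, then 10.3 ± 2.95 by 12 h and 26.7 ± 7.43 by 24 h.

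NCED5 (CsaV3_1G032340) was near 0 before the cold, with 0.122, 0 and 0 FPKM in the 0 h libraries. It had 0.285, 0.996 and 0.263 FPKM at 3 h. Its 12 h libraries had 7.14, 3.41 and 5.88 FPKM, and those of 24 h 8.78, 12.6 and 12.6. All 12 and 24 h libraries lay above all earlier ones. The log2 fold change was 3.42 (SE 0.29, limma adjusted p = 5.19e-07) at 12 h and 4.44 (SE 0.29, adjusted p = 3.99e-08) at 24 h. At 3 h it was 0.84 (adjusted p = 0.0264) and was not called, although it was called without 3 h replicate 3 (1.01) and with a pseudocount of 0.1 (2.04). From 12 to 24 h it was 1.02 (adjusted p = 0.0105), and that call was lost under 4 other settings and without 12 h replicate 2 (0.74), 24 h replicate 2 (0.94) or 24 h replicate 3 (0.94).

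An NCED3-like gene (CsaV3_4G007760), whose namesake in Arabidopsis is the main drought-induced dioxygenase, was high at 3 h and again at 24 h. Its libraries had 2.27, 1.28 and 0.961 FPKM at 0 h and 6.18, 6.74 and 7.38 in the 3 h libraries. After 12 h the FPKM was 4.09, 1.63 and 3.20, and after 24 h 10.7, 10.9 and 21.2. The 0 and 12 h libraries overlapped, while those of 3 and 24 h lay above both. The log2 fold change against 0 h was 1.91 (SE 0.32, adjusted p = 0.000323) at 3 h and 2.86 (SE 0.32, adjusted p = 5.96e-06) at 24 h. At 12 h it was 0.78 (adjusted p = 0.0483), and it was called without 0 h replicate 1 (1.04) or 12 h replicate 2 (1.09). The drop from 3 to 12 h was -1.13 (adjusted p = 0.00814), and was no longer called under the median-ratio (-0.86) or quantile (-0.77) scaling or without 12 h replicate 2 (-0.81).

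An NCED1-like gene (CsaV3_6G051790) was highest at 3 h. It had 1.73, 1.36 and 1.79 FPKM at 0 h and 4.32, 4.88 and 3.88 in the 3 h libraries. Later libraries had 1.53, 1.94 and 2.05 (12 h) and 0.879, 1.15 and 0.992 (24 h). The 3 h libraries lay above all others, and those of 24 h below all others. Its rise at 3 h was 1.19 on the log2 scale (SE 0.14, adjusted p = 2.04e-05), and at 24 h the difference from 0 h was -0.49 (adjusted p = 0.008), which was not called. The fall from 3 to 12 h was -1.06 (adjusted p = 3.91e-05), was lost under 3 other settings, and was -0.98 without 3 h replicate 2 and -0.96 without 12 h replicate 1. The fourth NCED, NCED6 (CsaV3_2G012080), was at 0 in all 0 h libraries, reached at most 0.0617 FPKM and was not tested.

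**Figure D2:**
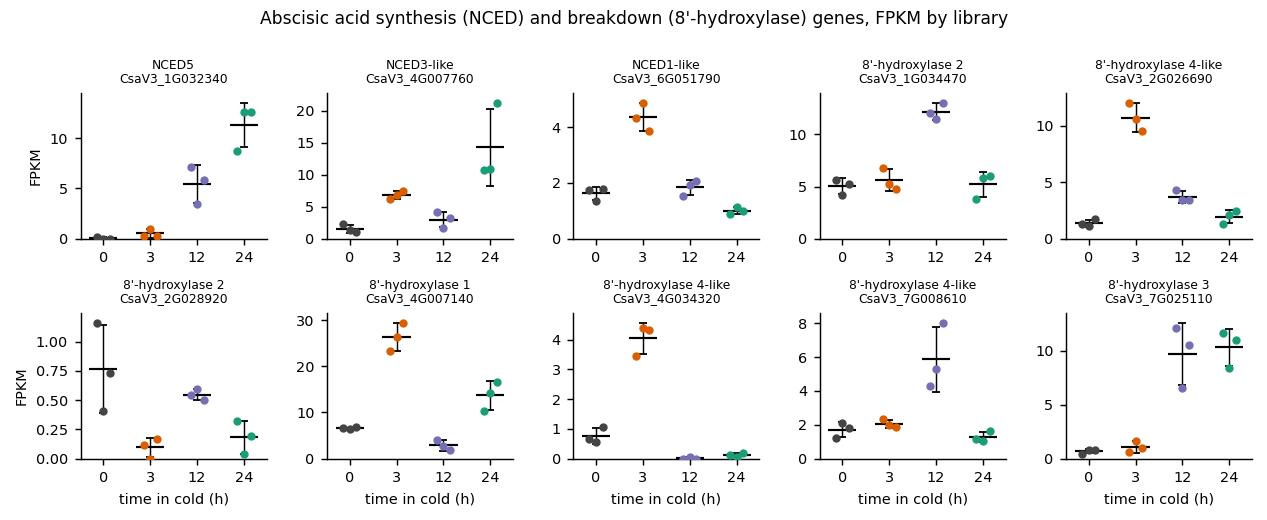
FPKM of the 3 tested NCED genes and the 7 tested 8'-hydroxylase genes against time in the cold, with 1 point per library, the mean as a bar and the SD (n = 3) as a whisker. NCED5 climbed from 0.0405 FPKM at 0 h to 11.3 at 24 h, while the 8'-hydroxylases peaked at different times, such as CsaV3_4G007140 with 26.4 FPKM at 3 h and CsaV3_7G025110 with 10.3 at 24 h.

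Among breakdown genes, 3 of 7 tested 8'-hydroxylases rose and 1 fell at 3 h, 4 rose and 2 fell at 12 h, and 1 rose and 1 fell at 24 h, where both other scalings gave 2 and 0. The shares higher were 42.9%, 57.1% and 14.3%, against 9.89%, 9.62% and 13.2% of all genes. Those lower were 14.3%, 28.6% and 14.3%, against 5.39%, 16.6% and 18.1%. The summed FPKM of all 8 was 16.9 ± 1.27 (SD, n = 3) before the cold and 50.0 ± 1.22 at 3 h, then 34.9 ± 4.22 by 12 h and 32.7 ± 4.81 by 24 h, so that every library in the cold lay above every 0 h library. Different genes made up that sum at different times.

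The most abundant one at 0, 3 and 24 h by its mean, an 8'-hydroxylase 1 (CsaV3_4G007140), alternated. It had 6.53, 6.51 and 6.74 FPKM at 0 h and 23.3, 26.3 and 29.4 in the 3 h libraries. By 12 h the values were 4.06, 2.68 and 1.84, and by 24 h 10.4, 14.1 and 16.7. No libraries of different times overlapped. The log2 fold change was 1.92 (SE 0.21, adjusted p = 1.25e-05) at 3 h, -3.05 (SE 0.21, adjusted p = 1.83e-07) from 3 to 12 h and 2.11 (SE 0.21, adjusted p = 8.42e-06) from 12 to 24 h. Its fall at 12 h against 0 h (-1.13, adjusted p = 0.000498) was not called under the median-ratio (-0.90) or quantile (-0.91) scaling or without 12 h replicate 3 (-0.90). At 24 h against 0 h it stood at 0.98 (adjusted p = 0.00133), just short of the threshold, and was called under those scalings (1.17 and 1.09) and without 24 h replicate 1 (1.16).

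Both 8'-hydroxylase 4-like genes that rose at 3 h did so from a low level. CsaV3_2G026690 had 1.25, 1.12 and 1.71 FPKM at 0 h and 12.1, 10.6 and 9.56 in the 3 h libraries. It then had 4.33, 3.44 and 3.40 FPKM (12 h) and 1.29, 2.08 and 2.44 (24 h). Its rise on the log2 scale was 2.60 (SE 0.19, adjusted p = 2.79e-07) at 3 h and 1.19 (SE 0.19, adjusted p = 0.000107) at 12 h. CsaV3_4G034320 had 0.666, 0.541 and 1.08 FPKM at 0 h and 3.44, 4.38 and 4.32 in the 3 h libraries. Next came 0, 0.0435 and 0 at 12 h, then 0.107, 0.065 and 0.183 by 24 h. It rose at 3 h by 1.87 (SE 0.18, adjusted p = 2.65e-06) and was then all but absent, with -3.14 (SE 0.18, adjusted p = 2.29e-08) from 3 to 12 h. Its call at 12 h against 0 h (-1.27, adjusted p = 3.62e-05) was lost with a pseudocount of 1 (-0.78). That at 24 h (-1.01, adjusted p = 0.000223) was lost under both scalings and a pseudocount of 1, and without 0 h replicate 3 (-0.84), 24 h replicate 1 (-1.0) or 24 h replicate 2 (-0.95).

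Later genes included an 8'-hydroxylase 3 (CsaV3_7G025110), with 0.442, 0.812 and 0.825 FPKM at 0 h and 0.610, 1.66 and 0.963 in the 3 h libraries. The 12 h libraries gave 12.1, 6.49 and 10.5 and the 24 h libraries 11.6, 8.35 and 10.9 FPKM. The 12 and 24 h libraries overlapped each other and lay above the rest. Its log2 fold change was 3.07 (SE 0.27, adjusted p = 6.52e-07) at 12 h and 3.18 (SE 0.27, adjusted p = 3.96e-07) at 24 h. At 12 h alone, CsaV3_7G008610 (8'-hydroxylase 4-like) stood at 5.87 ± 1.94 FPKM against 1.71 ± 0.456 at 0 h (log2 fold change 1.51, adjusted p = 5.85e-05), and CsaV3_1G034470 (8'-hydroxylase 2) at 12.2 ± 0.806 against 5.02 ± 0.778 (1.21, adjusted p = 4.51e-05). Both fell from 12 to 24 h (-1.82 and -1.18), the latter being -0.99 without 24 h replicate 1 and then not called. The only gene that fell at 3 h, CsaV3_2G028920 (8'-hydroxylase 2), went from 0.767 ± 0.381 to 0.0948 ± 0.0854 FPKM (-1.06, adjusted p = 0.00204), a call lost with a pseudocount of 1 (-0.67) and without 0 h replicate 1 (-0.84) or 3 h replicate 2 (-0.94). At 24 h it stood at -0.87 and was called without 0 h replicate 2 (-1.09), without 24 h replicate 1 (-1.01) and with a pseudocount of 0.1 (-1.65). An eighth gene, CsaV3_6G046570 (8'-hydroxylase 3-like), did not exceed 0.0294 FPKM and was not tested.

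All 11 receptor genes were tested, and 3 rose at 3 h, 2 rose and 3 fell at 12 h, and 4 rose and 3 fell at 24 h. The shares higher were 27.3%, 18.2% and 36.4%, against 9.89%, 9.62% and 13.2% of all genes. Those lower were 0%, 27.3% and 27.3%, against 5.39%, 16.6% and 18.1%. Under both other scalings 2 rose at 3 h. Median-ratio rescaling gave 2 lower at 12 h and 5 higher at 24 h. No receptor was called lower at 3 h by limma, 1 was lower at an adjusted p under 0.05 with no fold threshold, and quantile normalization called 1. The 3 genes that fell started from means of 233, 39.8 and 3.13 FPKM, and the 4 that rose from 0.628 FPKM or less. The filter shaped this contrast in part: a gene near 0 before the cold passed only through cold libraries and could hardly be called lower. The summed FPKM of the 11 went down, from 415 ± 3.51 (SD, n = 3) at 0 h to 362 ± 3.23 by 3 h, 306 ± 5.35 by 12 h and 237 ± 14.1 by 24 h, with no overlap between times. Most of the fall by 24 h was that of PYL8, the gene that started at 233 FPKM. The other receptors together summed higher at 3 and 12 h than at 0 h.

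PYL8 (CsaV3_7G025250), a receptor of the monomeric kind in Arabidopsis, was the most abundant receptor before the cold. It had 237, 238 and 224 FPKM at 0 h and 131, 125 and 115 in the 3 h libraries. After 12 h the FPKM was 118, 102 and 99.0, and after 24 h 67.0, 57.3 and 63.8. Every cold library lay below every 0 h library, and those of 24 h below all others. The log2 fold change was -0.91 at 3 h (adjusted p = 1.93e-06, not called), -1.14 (SE 0.08, adjusted p = 1.24e-07) at 12 h and -1.89 (SE 0.08, adjusted p = 1e-09) at 24 h. Under median-ratio rescaling the 12 h value was -0.87 and not called, and under quantile normalization the 3 h value was -1.02 and called.

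PYL9 (CsaV3_3G008140) did not follow PYL8 and, at 24 h, was more abundant than it in every library. It had 83.3, 76.2 and 87.7 FPKM at 0 h and 123, 124 and 132 in the 3 h libraries. Later libraries had 101, 112 and 112 (12 h) and 85.3, 97.0 and 81.8 (24 h). Its log2 fold change was 0.62 at 3 h (adjusted p = 3.33e-05) and 0.39 at 12 h (adjusted p = 0.000757), neither past the fold threshold. At 24 h the libraries overlapped those of 0 h.

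Besides PYL8, a PYL4-like gene (CsaV3_3G033450) and a PYR1-like gene (CsaV3_3G049190) fell. The PYL4-like gene had 41.3, 34.1 and 44.1 FPKM at 0 h and 35.2, 33.6 and 39.1 in the 3 h libraries. By 12 h the values were 9.77, 11 and 11.6, and by 24 h 12.5, 17.2 and 10.9. Its level held at 3 h, where the groups overlapped, and was lower in all 6 later libraries, by -1.83 (SE 0.15, adjusted p = 2.98e-07) at 12 h and -1.54 (SE 0.15, adjusted p = 1.17e-06) at 24 h. The PYR1-like gene went from 3.13 ± 0.125 FPKM at 0 h and 2.63 ± 0.189 at 3 h to 0.767 ± 0.0913 at 12 h and 0.624 ± 0.258 at 24 h, with -1.52 (adjusted p = 2.76e-06) and -1.71 (adjusted p = 7.95e-07) at the last times.

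Of the receptors that rose, another PYL4-like gene (CsaV3_4G026530) did so at every time. It had 0.427, 0.526 and 0.329 FPKM at 0 h and 3.08, 4.48 and 2.77 in the 3 h libraries. Next came 3.16, 4.6 and 6.8 at 12 h, then 14.6, 14.2 and 9.17 by 24 h. The 0 h libraries lay below and the 24 h libraries above all others, with log2 fold changes of 2.07 (SE 0.25, adjusted p = 2.39e-05), 2.48 (SE 0.25, adjusted p = 2.69e-06) and 3.80 (SE 0.25, adjusted p = 4.65e-08). The remaining PYL4-like gene (CsaV3_5G010560) had 0.144, 0.0719 and 0.248 FPKM at 0 h and 1.59, 2.69 and 1.82 in the 3 h libraries. The 12 h libraries gave 0.158, 0 and 0.341 and the 24 h libraries 3.37, 2.51 and 2.42 FPKM. It was thus up at 3 h (1.94, SE 0.22, adjusted p = 1.42e-05) and 24 h (2.32, SE 0.22, adjusted p = 1.28e-06) and was not called at 12 h, where its libraries overlapped those of 0 h.

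A PYL8-like gene (CsaV3_5G000620) rose late, with 0.628 ± 0.144 FPKM before the cold and 1.41 ± 0.157 at 3 h, then 7.19 ± 1.55 by 12 h and 6.00 ± 0.144 by 24 h, and log2 fold changes of 2.76 (adjusted p = 1.23e-08) and 2.54 (adjusted p = 1.94e-08) at 12 and 24 h. PYL4 (CsaV3_6G001990) went from 0.170 ± 0.148 FPKM at 0 h to 3.47 ± 0.734 at 24 h (2.58, adjusted p = 5.35e-06). Its call at 3 h (1.03, adjusted p = 0.00946) was lost under both scalings and a pseudocount of 1, and without 0 h replicate 2 (0.83) or 3 h replicate 2 (0.70). The remaining receptors were called at no time against 0 h: a PYR1-like gene (CsaV3_3G001740) with a mean of 19.7 FPKM at 0 h, a PYL8-like gene (CsaV3_3G022000) with 32.6, and PYL2 (CsaV3_4G035560) with 3.03. PYL2 reached 0.84 at 24 h (adjusted p = 0.00425) and was called under median-ratio rescaling (1.02) and without 0 h replicate 2 (1.09).

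**Figure D3:**
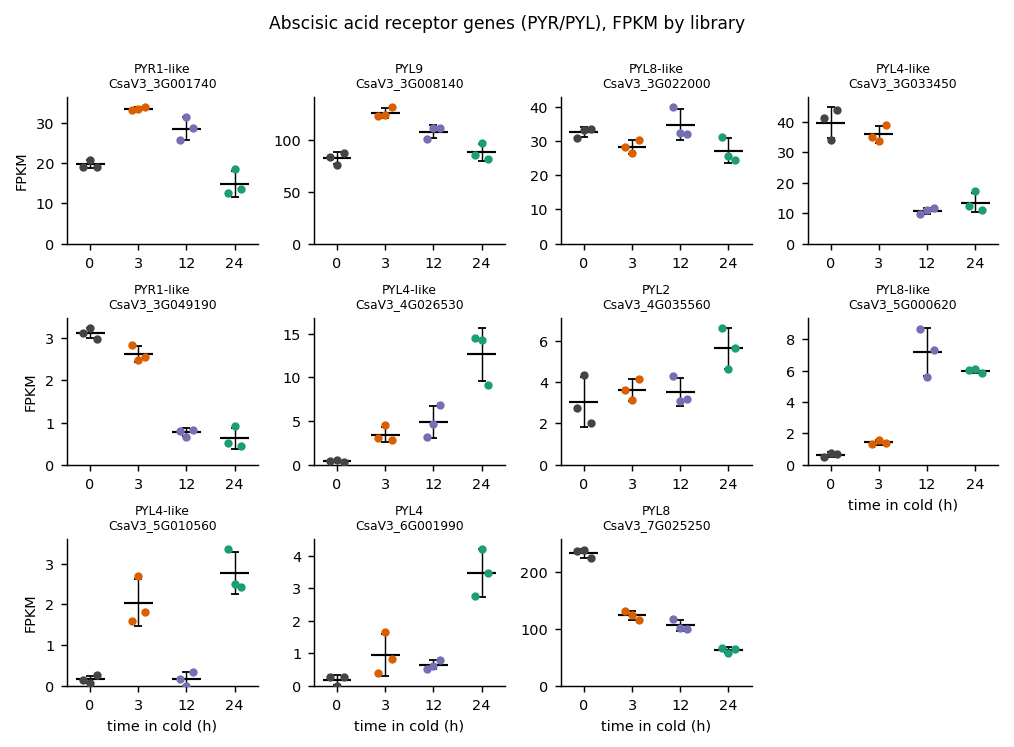
FPKM of the 11 receptor genes against time in the cold, with 1 point per library, the mean as a bar and the SD (n = 3) as a whisker. PYL8 (CsaV3_7G025250) went from 233 FPKM at 0 h to 62.7 at 24 h, whereas the PYL4-like gene CsaV3_4G026530 went from 0.427 to 12.7.

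Of 65 PP2C genes, 8 carried the orthology that the deposited annotation gives to the phosphatases of hormone signalling, and 7 of these were tested. Against 0 h, 1 rose and 2 fell at 3 h, 3 fell at 12 h and 4 fell at 24 h. The shares lower were 28.6%, 42.9% and 57.1%, against 5.39%, 16.6% and 18.1% of all genes. At 3 h 14.3% were higher, against 9.89%. None of the 7 was called higher by limma at 12 or 24 h, and 0 were higher at an unadjusted p under 0.05 with no fold threshold. Under median-ratio rescaling 2 fell at 12 h and 2 at 24 h, and under quantile normalization 3 and 4. Their summed FPKM was 399 ± 4.75 (SD, n = 3) before the cold and 330 ± 22.9 at 3 h, then 214 ± 31.0 by 12 h and 168 ± 25.2 by 24 h.

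Both PP2C 24 genes dipped at 3 h. CsaV3_1G034580 had 72.8, 68.3 and 72.6 FPKM at 0 h and 18.6, 18.5 and 18.7 in the 3 h libraries. After 12 h the FPKM was 80.6, 59.0 and 60.6, and after 24 h 32.6, 30.2 and 38.1. The 3 h libraries lay below all others, and the 12 h libraries overlapped those of 0 h. CsaV3_1G035680 had 30.3, 30.5 and 21.7 FPKM at 0 h and 5.17, 5.71 and 8.07 in the 3 h libraries. It then had 33.6, 24.4 and 26.3 FPKM (12 h) and 12.8, 11.6 and 12.8 (24 h), with the same order of the times. Their log2 fold changes were -1.91 (SE 0.11, adjusted p = 6.09e-08) and -2.04 (SE 0.17, adjusted p = 1.2e-06) at 3 h, and 1.80 (adjusted p = 5.59e-08) and 2.08 (adjusted p = 7.09e-07) from 3 to 12 h. At 24 h against 0 h they stood at -1.08 (adjusted p = 2.58e-06) and -1.10 (adjusted p = 9.89e-05), and under median-ratio rescaling at -0.87 and -0.90, not called.

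PP2C 75 (CsaV3_3G016530), the number that AHG1 carries in Arabidopsis, had the largest fall of the group. Its libraries had 106, 106 and 104 FPKM at 0 h and 96.2, 103 and 117 in the 3 h libraries. Later libraries had 13.9, 8.70 and 10.1 (12 h) and 20.3, 14 and 23.0 (24 h). The 0 and 3 h libraries overlapped, and the 6 later ones lay far below them, with -3.24 (SE 0.18, adjusted p = 1.38e-08) at 12 h and -2.46 (SE 0.18, adjusted p = 1.21e-07) at 24 h. PP2C 6 (CsaV3_1G039750) went down stepwise, from 48.0 ± 2.06 FPKM to 26.3 ± 1.30, 14.3 ± 1.63 and 12.1 ± 1.88, and was called at 12 h (-1.71, adjusted p = 3e-08) and 24 h (-1.95, adjusted p = 7.2e-09).

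PP2C 51 (CsaV3_3G027970) was the member of the group that rose at 3 h, from 18.5, 18.7 and 18.4 FPKM to 43.0, 48.4 and 49.2 (1.31, SE 0.22, adjusted p = 0.000298), and its 12 and 24 h libraries, at 11.9 to 28.8 FPKM, overlapped the 0 h range. PP2C 16-like (CsaV3_3G043720), named as HAB1 is numbered in Arabidopsis, had 74.0 ± 1.14 FPKM before the cold and 80.8 ± 5.67 at 3 h, then 32.4 ± 7.88 by 12 h and 38.0 ± 6.86 by 24 h. It fell at 12 h (-1.21, adjusted p = 2.04e-05; -0.94 and not called under median-ratio rescaling), and at 24 h stood at -0.97 (adjusted p = 0.000112), called without 24 h replicate 3 (-1.09). PP2C 53 (CsaV3_6G032130) was called in no comparison and went from 54.2 ± 1.06 to 29.9 ± 0.791 FPKM at 24 h (-0.85, adjusted p = 5.01e-08). The eighth gene, another PP2C 24 (CsaV3_6G001340), missed the filter: it was listed at 0 in all 0 h libraries and had 0.812, 0.471 and 1.61 FPKM at 24 h.

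**Figure D4:**
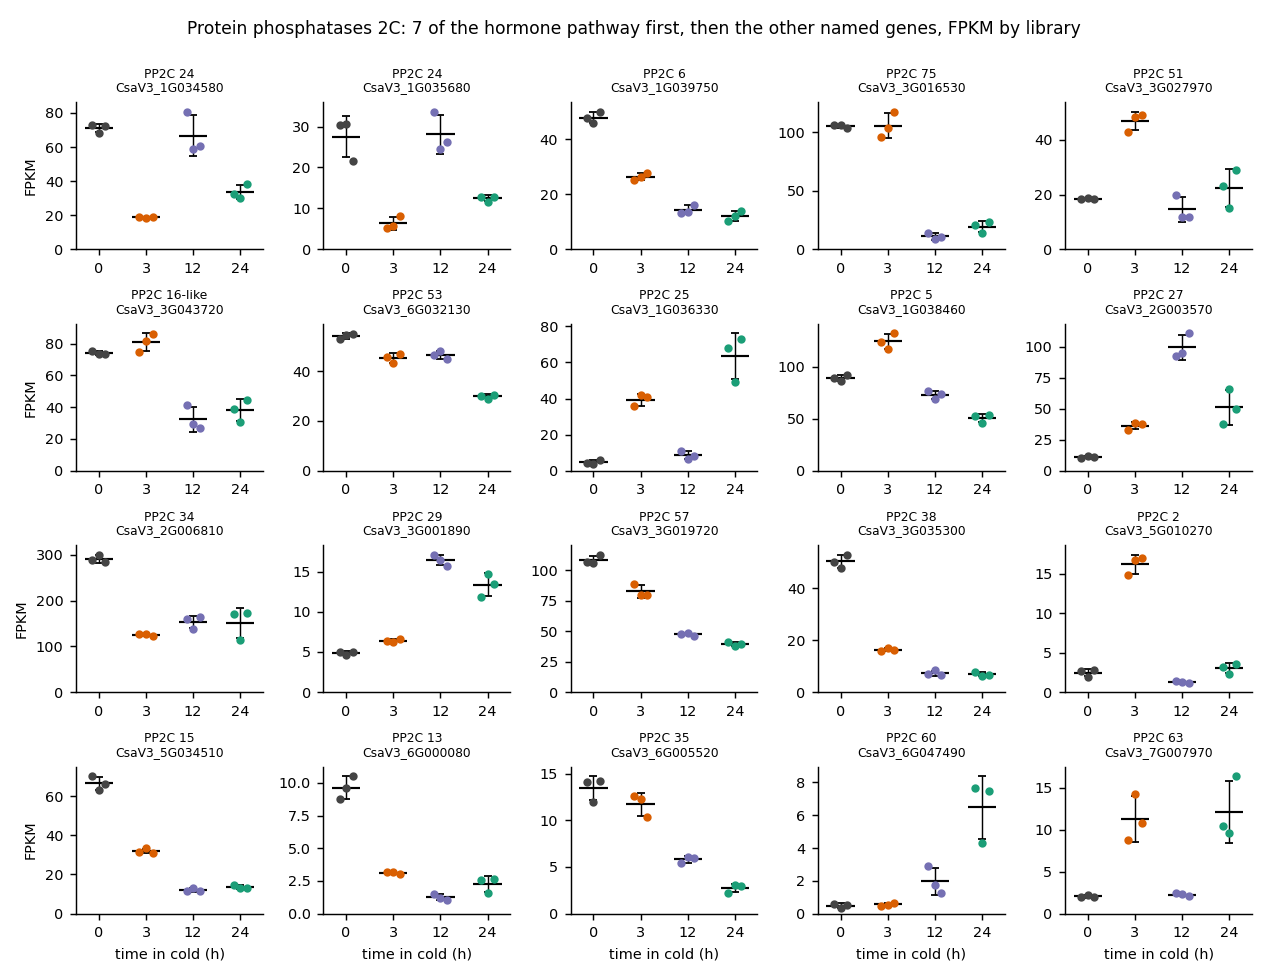
FPKM of 20 PP2C genes against time in the cold, the 7 tested genes of the hormone pathway first and then 13 others, with 1 point per library, the mean as a bar and the SD (n = 3) as a whisker. PP2C 75 fell from 105 FPKM at 0 h to 10.9 at 12 h, PP2C 24 (CsaV3_1G034580) dipped to 18.6 at 3 h, and PP2C 25 reached 39.4 at 3 h and 63.6 at 24 h.

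The other 55 tested PP2C genes, which share the catalytic fold but have their own targets, were called in both directions: 6 rose and 4 fell at 3 h, 3 rose and 14 fell at 12 h, and 8 rose and 12 fell at 24 h. As shares these were 10.9% and 7.27% at 3 h (9.89% and 5.39% of all genes), 5.45% and 25.5% at 12 h (9.62% and 16.6%), and 14.5% and 21.8% at 24 h (13.2% and 18.1%). The scaling changed this balance, with 5 higher and 7 lower at 12 h and 10 higher and 7 lower at 24 h after median-ratio rescaling. Their median log2 fold change was -0.08, -0.44 and -0.42 at the 3 times, and -0.12, -0.18 and -0.23 after that rescaling.

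PP2C 25 (CsaV3_1G036330), which in Arabidopsis is AP2C1, a phosphatase of MAP kinases, had 4.29, 3.66 and 6.16 FPKM at 0 h and 35.6, 41.9 and 40.6 in the 3 h libraries. By 12 h the values were 10.7, 6.42 and 8.33, and by 24 h 68.3, 49.3 and 73.1. All 3 and 24 h libraries lay above all others. The log2 fold change was 2.96 (SE 0.21, adjusted p = 2.63e-07) at 3 h and 3.63 (SE 0.21, adjusted p = 1.29e-08) at 24 h, and 0.79 (adjusted p = 0.00455) at 12 h, called at 1.03 under median-ratio rescaling. PP2C 63 (CsaV3_7G007970) was likewise up at 3 h (11.3 ± 2.74 FPKM) and 24 h (12.1 ± 3.70) against 2.06 ± 0.174 at 0 h and 2.26 ± 0.204 at 12 h, with 2.18 (adjusted p = 1.67e-06) and 2.27 (adjusted p = 4.4e-07).

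Other PP2Cs peaked once. PP2C 2 (CsaV3_5G010270) had 2.70, 1.9 and 2.83 FPKM at 0 h and 14.8, 16.8 and 17.0 at 3 h (2.50, SE 0.16, adjusted p = 1.06e-07), with means of 1.31 at 12 h and 3.03 at 24 h. PP2C 27 (CsaV3_2G003570) had 9.92, 12.1 and 10.7 FPKM at 0 h and 33.2, 38.5 and 37.5 in the 3 h libraries. Next came 92.9, 94.9 and 111 at 12 h, then 38.0, 66.2 and 49.7 by 24 h. It was the 1 PP2C called higher at all 3 times, by 1.70 (adjusted p = 3.25e-06), 3.13 (adjusted p = 7.21e-09) and 2.15 (adjusted p = 1.53e-07). PP2C 60 (CsaV3_6G047490) rose late, with 0.474 ± 0.149 FPKM at 0 h, 1.97 ± 0.823 at 12 h and 6.47 ± 1.9 at 24 h (2.81, adjusted p = 6.98e-07), and its call at 12 h (1.30) was lost with a pseudocount of 1 (0.98). PP2C 29 (CsaV3_3G001890) rose at 12 h (1.65, adjusted p = 5.56e-09) and 24 h (1.36, adjusted p = 2.32e-08).

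Among those that fell, PP2C 38 (CsaV3_3G035300), which in Arabidopsis restrains an immune kinase, had 50.2, 47.8 and 52.8 FPKM at 0 h and 15.8, 16.8 and 16.1 in the 3 h libraries. The 12 h libraries gave 6.81, 8.34 and 6.49 and the 24 h libraries 7.67, 6.31 and 6.39 FPKM. It was lower in every cold library, by -1.60 (SE 0.10, adjusted p = 8.83e-08), -2.73 (SE 0.10, adjusted p = 3.07e-10) and -2.80 (SE 0.10, adjusted p = 1.62e-10). PP2C 15 (CsaV3_5G034510) and PP2C 13 (CsaV3_6G000080) were also called lower at all 3 times, from 66.5 ± 3.51 to 12.0 ± 0.994 FPKM and from 9.63 ± 0.869 to 1.23 ± 0.227 FPKM at 12 h (-2.42 and -2.55). PP2C 34 (CsaV3_2G006810), the most abundant member of all at 0 h with 288, 299.8 and 285 FPKM, fell to 127, 127 and 122 at 3 h (-1.21, SE 0.13, adjusted p = 9.07e-06). It stayed near that level, with 154 ± 13.6 at 12 h (-0.92) and 152 ± 33.1 at 24 h (-0.96). The 24 h value was called under quantile normalization (-1.04) and without 24 h replicate 1 (-1.05) or 24 h replicate 3 (-1.06). PP2C 57 (CsaV3_3G019720), the phosphatase of the light-harvesting complex in Arabidopsis, went from 108 ± 3.59 FPKM to 47.3 ± 0.921 at 12 h (-1.19, adjusted p = 5.51e-09; -0.92 and not called under median-ratio rescaling) and 39.4 ± 1.45 at 24 h (-1.45, adjusted p = 6.94e-10), while the mesophyll markers summed higher at 12 h. PP2C 35 (CsaV3_6G005520) fell by 24 h, from 13.5 ± 1.28 to 2.71 ± 0.437 FPKM (-2.12, adjusted p = 1.01e-08).

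SnRK2 kinases were called lower: of 10 tested genes, 1 fell at 3 h, 5 at 12 h and 3 at 24 h. The shares were 10%, 50% and 30%, against 5.39%, 16.6% and 18.1% of all genes. By limma 0 rose at any time, while 1 was higher at each time at an adjusted p under 0.05 with no fold threshold. Under either other scaling 0 rose as well and 4 fell at 12 h. Their summed FPKM was 198 ± 7.0 (SD, n = 3) before the cold and 151 ± 1.01 at 3 h, then 128 ± 5.45 by 12 h and 133 ± 7.65 by 24 h, with all cold libraries below those of 0 h.

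Largest of these falls at 12 h was that of an SRK2G-like gene (CsaV3_4G030060), which had 13.2, 14.2 and 9.89 FPKM at 0 h and 3.83, 2.65 and 4.43 in the 3 h libraries. After 12 h the FPKM was 2.21, 1.84 and 1.09, and after 24 h 4.54, 2.03 and 3.21. Every cold library lay below every 0 h library, by -1.65 (SE 0.27, adjusted p = 0.000247), -2.57 (SE 0.27, adjusted p = 3.72e-06) and -1.82 (SE 0.27, adjusted p = 6.29e-05). The SRK2A, SRK2B, SRK2G and SRK2H kinases belong, in Arabidopsis, to the subclass that osmotic stress rather than the hormone activates. An SRK2B-like gene (CsaV3_4G030100) fell at 12 h from 2.42 ± 0.735 to 0.605 ± 0.207 FPKM (-1.39, adjusted p = 2.69e-05), and SAPK3-like (CsaV3_3G002220) fell from 45.1 ± 2.16 to 12.8 ± 1.38 at 12 h (-1.78, adjusted p = 3.49e-08) and 15.4 ± 2.71 at 24 h (-1.53, adjusted p = 1.11e-07). SRK2A-like (CsaV3_4G030050), at 32.2 ± 1.19 FPKM before the cold, was called at no time (-0.72, -0.48 and -0.89). SRK2H (CsaV3_4G030260) stood at -1.0 at 12 h (adjusted p = 2.49e-05), just short of the threshold, and was called with a pseudocount of 0.1 (-1.04) and without 0 h replicate 2 (-1.0), 0 h replicate 3 (-1.06) or 12 h replicate 3 (-1.06).

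Other SnRK2 kinases differed among themselves. SRK2E, known in Arabidopsis as OST1, is the kinase that closes stomata. An SRK2E-like gene (CsaV3_2G014200) had 5.96, 4.66 and 5.93 FPKM at 0 h and 6.62, 6.71 and 6.16 in the 3 h libraries. Later libraries had 1.80, 1.65 and 1.57 (12 h) and 0.906, 1.14 and 0.609 (24 h). All 12 and 24 h libraries lay below the earlier ones, by -1.46 (SE 0.15, adjusted p = 2.42e-06) and -2.13 (SE 0.15, adjusted p = 6.57e-08). The gene described as SRK2E itself (CsaV3_7G008840) had 11.5 ± 0.520 FPKM before the cold and 12.7 ± 0.324 at 3 h, then 8.19 ± 1.19 by 12 h and 11.6 ± 1.37 by 24 h and was called in no comparison. SRK2I (CsaV3_2G016930) fell at 12 h from 29.9 ± 3.18 to 13.8 ± 2.16 FPKM (-1.09, adjusted p = 1.78e-05), a call lost under median-ratio (-0.83) and quantile (-0.90) scaling, and stood at 23.5 ± 4.49 at 24 h. SAPK2 (CsaV3_6G045260), the most abundant SnRK2 at 3, 12 and 24 h, kept between 44.7 ± 0.948 and 58.8 ± 1.66 FPKM and was called in no comparison. The guard cell list summed lower at 24 h than at 0 h in every library, and its part in the SRK2E-like values was not tested.

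By their locus names, 7 SRK2 or SAPK genes lie close together on chromosome 4 (CsaV3_4G030050 to CsaV3_4G030260). The sources used here do not say how reads that fit more than 1 of such alike genes were assigned, so that the split of the values among them is uncertain. An SRK2H gene marked as a low-quality protein (CsaV3_4G030140) had at most 0.905 FPKM, SRK2G-like CsaV3_4G030080 at most 0.0527, and SAPK7-like CsaV3_4G030120 was at 0 in all 12 libraries.

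In the SnRK1 complex, whose catalytic alpha subunit is held by beta and gamma subunits, 1 of 12 tested genes rose and 0 fell at 3 h by limma, 1 fell at 12 h, and 1 rose and 2 fell at 24 h. The share higher was 8.33% at 3 and 24 h, against 9.89% and 13.2% of all genes. The shares lower at 12 and 24 h were 8.33% and 16.7%, against 16.6% and 18.1%. At an unadjusted p under 0.05 with no fold threshold, 3 were lower at 3 h and 3 were higher at 12 h. Quantile normalization called 1 as lower at 3 h, as did leaving out 0 h replicate 2, 3 h replicate 2 or 3 h replicate 3, and 2 were lower at 12 h without 12 h replicate 1. The median log2 fold change was -0.16 at 24 h and changed sign to 0.03 under median-ratio rescaling. The catalytic subunit KIN10 (CsaV3_6G006250) was level, with 52.8, 51.7 and 51.2 FPKM at 0 h and 48.2, 48.5 and 46.8 in the 3 h libraries. By 12 h the values were 51.5, 51.3 and 47.8, and by 24 h 57.3, 54.2 and 49.9. Its log2 fold changes against 0 h were -0.12, -0.05 and 0.05 (SE 0.06 each, adjusted p = 0.13, 0.512 and 0.497).

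A gamma-1 subunit gene (CsaV3_1G000600) stood apart. It had 2.54, 1.84 and 1.92 FPKM at 0 h and 1.16, 1.14 and 1.87 in the 3 h libraries. Next came 5.51, 4.47 and 3.37 at 12 h, then 41.0, 23.2 and 36.0 by 24 h. The 24 h libraries lay far above all others, with 3.67 (SE 0.23, adjusted p = 2.68e-08) against 0 h and 2.76 (SE 0.23, adjusted p = 1.61e-06) against 12 h. At 12 h it was 0.91 above 0 h (adjusted p = 0.00346), and was called under both scalings (1.14 and 1.12), without 0 h replicate 1 (1.03) and without 12 h replicate 3 (1.08).

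The gene that fell at 12 h, a gamma-like PV42a subunit (CsaV3_4G001710) named here after its values were seen, went from 1.41 ± 0.169 FPKM to 0.309 ± 0.0680 (-1.24, adjusted p = 3e-05), and at 24 h to 0.255 ± 0.0534 (-1.34, adjusted p = 1.36e-05). Beta-2 subunit genes moved less. CsaV3_6G048260 fell at 24 h from 25.4 ± 1.94 to 10.9 ± 1.18 FPKM (-1.19, adjusted p = 1.15e-07; -0.99 and not called under median-ratio rescaling). CsaV3_1G015740 went from 29.2 ± 0.828 to 15.4 ± 0.950 FPKM (-0.90, adjusted p = 1.74e-07) and was not called. CsaV3_7G002490 rose at 3 h from 4.59 ± 0.683 to 9.77 ± 0.611 FPKM (1.02, adjusted p = 2.75e-05), a call lost under both scalings and a pseudocount of 1, and without 0 h replicate 3 (0.90) or 3 h replicate 2 (0.98).

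**Figure D5:**
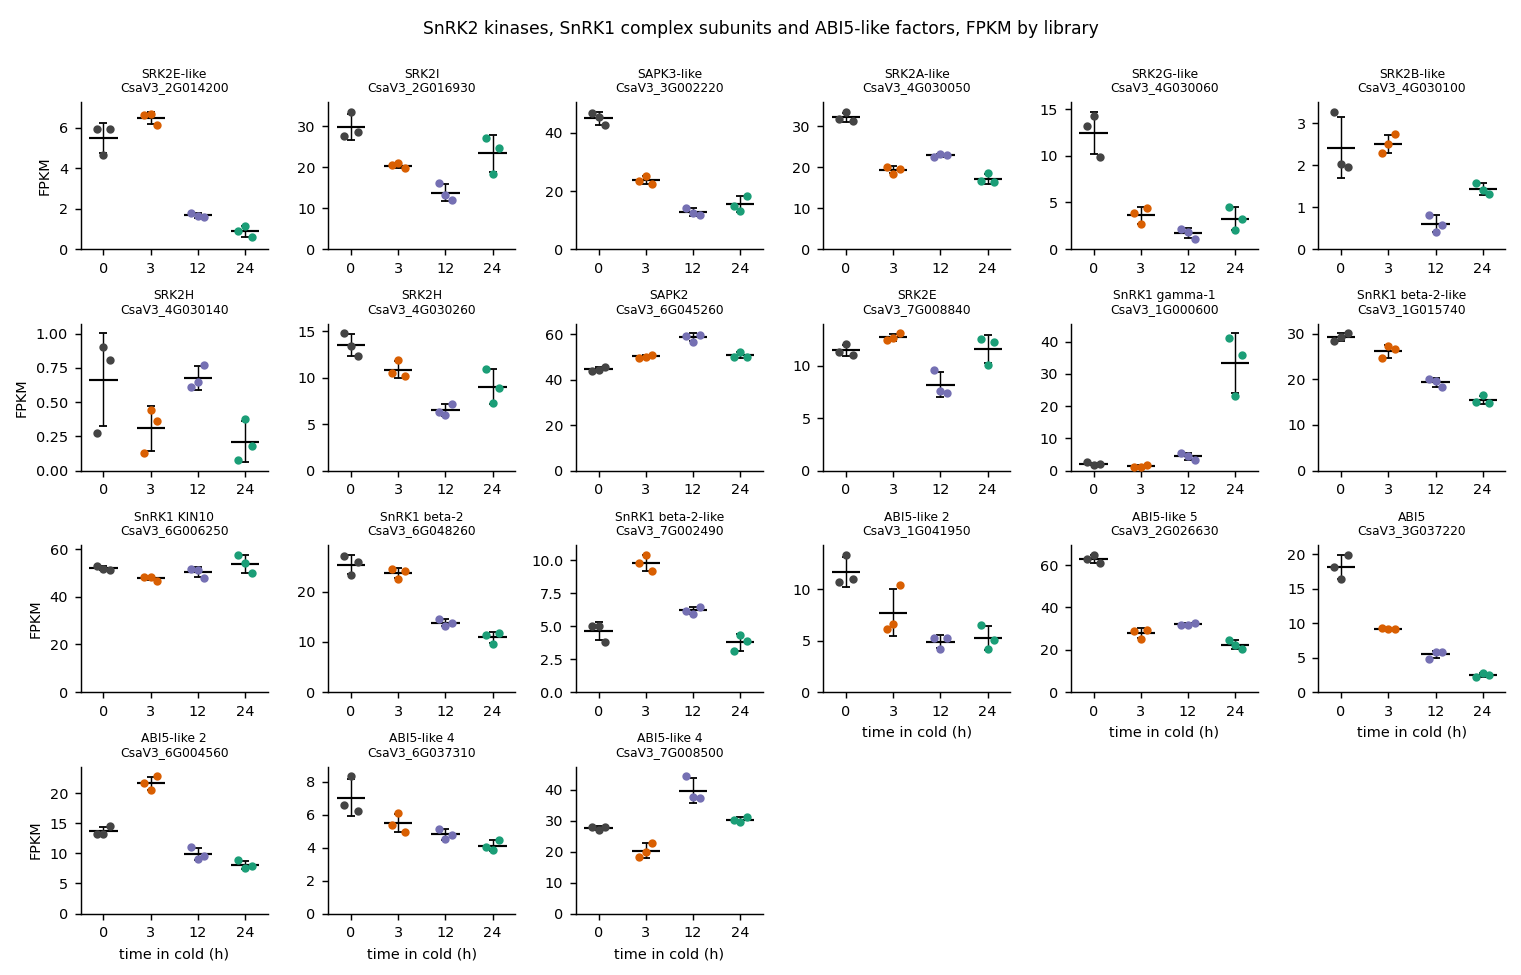
FPKM of 10 SnRK2 genes, 5 genes of the SnRK1 complex and 6 ABI5-type transcription factors against time in the cold, with 1 point per library, the mean as a bar and the SD (n = 3) as a whisker. The gamma-1 subunit gene reached 33.4 FPKM at 24 h from 2.10 at 0 h, KIN10 stayed between 47.8 and 53.8, and ABI5 went down from 18.2 to 2.52.

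Of the 6 tested ABI5-type transcription factors, which bind the hormone's response element in promoters, 1 fell at 3 h, 2 at 12 h and 3 at 24 h. The shares were 16.7%, 33.3% and 50%, against 5.39%, 16.6% and 18.1% of all genes. Under both other scalings 1 fell at 12 h and 2 at 24 h. None of the 6 rose by limma against 0 h, also under both other scalings. At an adjusted p under 0.05 with no fold threshold, limma gave 1 as higher at 3 h, 1 at 12 h and 0 at 24 h. ABI5 itself (CsaV3_3G037220) had 18.2, 16.4 and 19.9 FPKM at 0 h and 9.33, 9.12 and 9.20 in the 3 h libraries. The 12 h libraries gave 4.84, 5.78 and 5.78 and the 24 h libraries 2.25, 2.77 and 2.54 FPKM. Each time lay below the one before in every library. Its log2 fold change was -0.94 at 3 h (adjusted p = 8.24e-06, not called; -1.05 under quantile normalization and -1.01 without 0 h replicate 2, both called), -1.65 (SE 0.10, adjusted p = 2.71e-08) at 12 h and -2.63 (SE 0.10, adjusted p = 3.44e-10) at 24 h.

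ABI5-like protein 5 (CsaV3_2G026630), which carries the number of ABF2 in Arabidopsis, was the most abundant factor at 0 h. It had 62.9, 64.7 and 60.8 FPKM at 0 h and 28.9, 25.2 and 29.4 in the 3 h libraries. After 12 h the FPKM was 31.7, 31.5 and 32.5, and after 24 h 24.6, 22.1 and 20.4. All cold libraries lay below those of 0 h, by -1.16 (SE 0.08, adjusted p = 1.79e-07) at 3 h, -0.97 (not called) at 12 h and -1.47 (SE 0.08, adjusted p = 6.09e-09) at 24 h. ABI5-like protein 4 (CsaV3_7G008500) went another way, with 27.6 ± 0.630, 20.3 ± 2.37, 39.8 ± 3.97 and 30.3 ± 0.897 FPKM; it was called at no time, and its step from 3 to 12 h (0.95, adjusted p = 1.66e-06) was called under both scalings (1.25 and 1.19) and without 3 h replicate 3 (1.04). ABI5-like protein 2 (CsaV3_1G041950) fell at 12 h (-1.17, adjusted p = 0.000158) and 24 h (-1.10, adjusted p = 0.000238) from 11.6 ± 1.46 FPKM, and both calls were lost under both scalings, the latter also without 24 h replicate 2 (-0.96). A second ABI5-like protein 4 (CsaV3_6G037310) and another ABI5-like protein 2 (CsaV3_6G004560) were called at no time against 0 h. Of the 2 factors not tested, the higher one, CsaV3_4G028620, had at most 0.896 FPKM.

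For context, 56 further genes were listed by words in their descriptions or by their orthology, and 44 were tested. The words stood for enzymes that make the carotenoid precursors or finish the hormone, the ninja family with its regulators of ABI5, transporters and response genes. Whether the hormone acts on these genes here was not tested. At 3 h 6 rose and 2 fell, at 12 h 6 rose and 11 fell, and at 24 h 13 rose and 12 fell. These were 13.6% and 4.55% at 3 h (all genes 9.89% and 5.39%), 13.6% and 25% at 12 h (9.62% and 16.6%), and 29.5% and 27.3% at 24 h (13.2% and 18.1%). Upstream of NCED, 5 zeaxanthin epoxidase genes were tested, of which 1 fell at each time and 2 rose at 24 h, with median log2 fold changes of -0.56, -0.33 and 0.25. The most abundant of them before the cold (CsaV3_3G049870) had 77.5 ± 1.83 FPKM at 0 h and was called at no time (-0.04, -0.43 and -0.55). The gene that fell, a zeaxanthin epoxidase gene (CsaV3_7G001140) had 43.0, 39.6 and 45.7 FPKM at 0 h, and 16.9, 14.5 and 14.8 at 3 h, and was called lower at all 3 times (-1.44, -1.54 and -2.20; adjusted p = 1.26e-07, 2.37e-08 and 7.94e-10). At the end of synthesis, a molybdenum cofactor sulfurase-like gene (CsaV3_5G003320), of the kind that arms the last oxidase, rose at all 3 times, from 0.972 ± 0.348 FPKM to 3.30 ± 0.672, 9.37 ± 1.06 and 9.63 ± 0.306 (1.38, 2.77 and 2.81). The only other tested sulfurase gene (CsaV3_6G013680) had 5.88 ± 0.225 FPKM at 0 h, then 2.70 ± 0.245, 4.04 ± 0.533 and 3.87 ± 0.483, and was not called (log2 fold changes of -1.0, -0.5 and -0.55).

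Of 7 tested genes described as ninja-family, 1 rose at each time and 1, 3 and 3 fell. The AFP proteins of this family bind ABI5 in Arabidopsis and damp its action. Several of the 7 are described as mc410 and not as AFP, so the counts do not stand for ABI5 regulators alone. The AFP3-like gene CsaV3_3G030080 had 1.48, 1.52 and 0.911 FPKM at 0 h and 10.9, 12.5 and 11.6 in the 3 h libraries. Later libraries had 55.0, 45.9 and 48.5 (12 h) and 7.96, 8.88 and 11.5 (24 h). The 12 h libraries lay above all others (4.81, SE 0.15, adjusted p = 1.06e-10). The other AFP3-like gene, CsaV3_5G033350, fell from 158 ± 2.30 FPKM at 0 h to 74.6 ± 7.98, 24.5 ± 2.45 and 30.3 ± 4.47, so that genes with 1 description moved in opposite directions. Ninja 6-like (CsaV3_1G006020) fell from 127 ± 9.16 FPKM to 30.9 ± 3.21 at 12 h (-2.03, adjusted p = 4.06e-08) and 23.0 ± 4.65 at 24 h (-2.46, adjusted p = 5.69e-09).

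Among those listed as response genes, 9 HVA22-like genes were tested. Limma called 0 of them at 3 h, where at an adjusted p under 0.05 with no fold threshold 1 was higher and 1 lower. Of them 3 fell at 12 h, and 1 rose and 3 fell at 24 h, with median log2 fold changes of -0.20, -0.65 and -0.78. A dehydrin DHN1-like gene (CsaV3_4G005460), of a family that protects cells as they lose water, had 3.67, 6.91 and 5.29 FPKM at 0 h and 49.2, 63.6 and 61.9 in the 3 h libraries. By 12 h the values were 2.95, 0.618 and 1.53, and by 24 h 224, 124 and 366. The 3 and 24 h libraries lay above the 0 h range and the 12 h libraries below it, with 3.37 (SE 0.44, adjusted p = 7.72e-05), -1.51 (SE 0.44, adjusted p = 0.0103) and 5.27 (SE 0.44, adjusted p = 1.12e-06). Of 4 tested genes for respiratory burst oxidases, which make superoxide, 1 rose at 3 and 12 h, and 2 rose and 2 fell at 24 h, with medians of -0.29, 0.27 and 0.30. The homolog C gene (CsaV3_3G043480) had 5.41, 1.60 and 5.98 FPKM at 0 h and 70.5, 96.5 and 88.3 in the 3 h libraries. Next came 17.4, 14.4 and 15.5 at 12 h, then 83.9, 62.4 and 91.9 by 24 h. It was higher in every cold library and, like the dehydrin gene, higher at 3 and 24 h than at 12 h (4.30, 1.91 and 4.19 against 0 h).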

How the data were processed

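Leaf RNA-seq of 12 libraries was used. According to the sources, the authors trimmed reads (cutadapt 1.9, with FastQC for quality), mapped them with HISAT2 to the cucumber Chinese Long V3 genome and deposited FPKM values per gene; the program behind these FPKM values was not given in the sources used here. A value of 0.0001 in the deposited table was read as 0. Fold, p and q columns of the authors' own pairwise comparisons were not used. Depth is unknown in absolute terms, and 3 libraries per time limit the precision.

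Genes that reached 0.5 FPKM in 3 or more libraries were fitted on log2(FPKM + 0.5) over all 12 libraries with limma 3.58.1 in R 4.3.3 (empirical Bayes, Benjamini-Hochberg adjustment over all tested genes, two-sided). A call required both an adjusted p below 0.05 and a change beyond 1 on the log2 scale. Python 3.11.15, numpy 2.4.6, pandas 2.3.3 and matplotlib 3.10.9 were used for the rest, and the fit was tested on simulated data.

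Genes named in full were the tested synthesis, breakdown, receptor and transcription factor genes, hormone PP2Cs and SnRK2s. Of the other PP2Cs and kinases, the rule took the 3 highest and 3 lowest called fold changes at each time among genes whose mean reached 2 FPKM, and the 3 most abundant at 0 h. Of the further pathway genes it took the 2 highest and 2 lowest. PP2C 5 (CsaV3_1G038460), taken for its abundance at 0 h, is only plotted and has no values in the text. Alternatives were pseudocounts of 0.1 and 1, other filters, median-ratio and quantile scaling, fits of 6 libraries, a replicate block, other thresholds and each library left out. The members and lists were chosen with earlier results of these data known.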

Additional observations from a re-analysis of the deposited data

Results flagged for a closer look

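Of the breakdown genes, 2 were called higher at 3 h and lower at 12 h against 0 h, so that the differences from 0 h had opposite signs at these times. They were flagged because of these calls and a call in the direct comparison, which follows from the same libraries and adds no separate support. For the 8'-hydroxylase 1 gene CsaV3_4G007140 the log2 fold change was 1.92 at 3 h and -1.13 at 12 h, and the direct comparison of 12 h with 3 h gave -3.05 (limma adjusted p = 1.83e-07), with all 3 libraries at 12 h below all 3 at 3 h. For the 8'-hydroxylase 4-like gene CsaV3_4G034320 the values were 1.87, -1.27 and -3.14 (adjusted p = 2.29e-08), again with no overlap. At 12 h against 0 h, the first call was lost under both other scalings and without 12 h replicate 3, and the second with a pseudocount of 1.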

How the results depend on the processing

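No value changed sign where it was called. Of 159 calls of the 69 genes chosen for naming, 132 held in all 20 alternative fits and 27 were lost in at least 1. Of 186 comparisons without a call 29 gained one. Without the fold threshold the members counted as higher and lower were 38 and 34 at 3 h, 28 and 62 at 12 h, 25 and 61 at 24 h, 21 and 69 from 3 to 12 h, and 39 and 34 from 12 to 24 h. With the threshold, median-ratio rescaling gave 18 members lower at 12 h, 18 at 24 h and 7 from 12 to 24 h. Quantile normalization gave 19 lower from 3 to 12 h and 8 from 12 to 24 h, and a pseudocount of 0.1 gave 7 for the latter. Leaving out each library in turn, that count ran from 2 to 7, against 3 in all libraries. The causes were not tested.

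With a replicate block, the counts of members called were 16 and 9, 10 and 30, 16 and 28, 11 and 29, and 13 and 3 in the same order. Libraries that share a number did not deviate together (correlations of -0.164 to 0.158, against -0.21 to 0.145 for other numbers), so that the numbers were not read as pairs. Depth in reads is unknown, 3 libraries per time limit each value, and members below the filter were not tested.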
